A study of Mus musculus with 9 samples.

Results

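The integrated stress response was examined in mouse bone marrow-derived mast cells (BMMCs) through 10 genes, the transcription factor gene Atf4 and 9 genes known as its targets: Chac1, Ddit3, Ddit4, Trib3, Asns, Sesn2, Psat1, Phgdh and Ppp1r15a. They were taken by symbol from the 47643 genes of the count table, and all 10 were among the 11560 genes abundant enough to be tested. Chac1 and Ddit4 were chosen on measured values, namely their fall with luteolin in these libraries. The other 8 were chosen as genes of the same pathway, though with earlier results of these data known, and the question asked of them was whether they shared that fall. Values of Chac1 and Ddit4 are therefore given as a description, with no test in any comparison, because all comparisons share libraries with the one on which they were chosen.

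The study sequenced 3 groups of 3 libraries. All cells were grown from C57BL/6 bone marrow for at least 4 weeks in medium conditioned by WEHI-3 cells, a mouse line that secretes interleukin-3. The Control group was left unstimulated, the BSA group was labelled IgE+BSA (sensitised with an antibody of class IgE and challenged with its antigen, a hapten coupled to albumin), and the BSA + luteolin group was labelled IgE+BSA+Luteolin. Luteolin is a plant flavone. The treatment protocol, worded alike for every library, Control included, gave 10 μM luteolin for 24 h. The time of stimulation before RNA was taken is not given in the sources used here, and those sources used here differ on whether luteolin came before or after the antigen. No source says whether the 3 libraries of a group came from separate animals or cultures, so p-values measure the spread between these libraries, which may be technical.

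Cells that meet amino acid shortage, unfolded proteins in the endoplasmic reticulum, heme deficiency or double-stranded RNA phosphorylate the initiation factor eIF2. General translation then slows while the Atf4 mRNA is translated more, and the ATF4 protein, a basic leucine zipper (bZIP) factor, pairs with C/EBP and other bZIP proteins on composite DNA elements. Its targets include enzymes that make amino acids, amino acid transporters, aminoacyl-tRNA synthetases, brakes on the growth kinase mTORC1, the death-associated factor CHOP (Ddit3) and the phosphatase subunit GADD34 (Ppp1r15a), which removes phosphate from eIF2 and so closes the response. These libraries measured mRNA alone, and neither eIF2 phosphorylation nor ATF4 protein was among the data analysed.

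The promoters were searched for the C/EBP-ATF composite element in the letters TGATGNAAN, on both strands, in RefSeq windows that ran from 250 bases before to 50 bases after each transcription start (GRCm38.p6). All 10 genes had a window and Psat1 had 2. The element was found in 3 of the 11 windows, those of Chac1, Trib3 and Asns, and in 3.95% of all 32851 windows. The letters of the cAMP response element, TGACGTCA, were found in the window of Ppp1r15a and in 1.79% of all windows. A match describes the sequence and is no evidence of binding, and its absence says only that these letters were not in the window.

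The following stretches are shown because Chac1 and Ddit4 were the genes chosen for their fall, Ddit3 had the lowest value of the members tested, and the elements of Asns and Trib3 belong to members whose values with luteolin differed. Each is printed 5′ to 3′ on the strand of its gene with the composite element in capitals, which read as the reverse complement of the searched letters in Chac1 and Trib3. The first 3 stop before the first annotated start of the gene, and the last 2 are 29 bases around the element. They lie at chr2:119350992-119351228, plus strand, for Chac1, at chr10:59951835-59952020, minus strand, for Ddit4, at chr10:127290543-127290773, plus strand, for Ddit3, at chr6:7693214-7693242, minus strand, for Asns, and at chr2:152344029-152344057, minus strand, for Trib3.
Chac1: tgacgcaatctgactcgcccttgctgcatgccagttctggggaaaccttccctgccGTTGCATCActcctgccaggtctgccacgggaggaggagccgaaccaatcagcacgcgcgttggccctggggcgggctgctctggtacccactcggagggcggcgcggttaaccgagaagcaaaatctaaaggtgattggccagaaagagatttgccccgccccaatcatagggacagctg
Ddit4: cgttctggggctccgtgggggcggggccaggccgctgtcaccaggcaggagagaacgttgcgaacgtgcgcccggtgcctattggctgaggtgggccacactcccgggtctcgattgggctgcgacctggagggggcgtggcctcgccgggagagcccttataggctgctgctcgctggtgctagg
Ddit3: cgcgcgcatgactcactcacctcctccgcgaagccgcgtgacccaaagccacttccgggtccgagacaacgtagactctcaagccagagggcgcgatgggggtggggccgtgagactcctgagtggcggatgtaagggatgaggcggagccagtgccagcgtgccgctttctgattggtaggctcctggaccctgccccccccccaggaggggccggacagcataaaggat
Asns: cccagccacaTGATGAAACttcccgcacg
Trib3: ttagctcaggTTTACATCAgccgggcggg

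The libraries held 9515004 to 24605689 counts each, and 3 counts corresponded to 0.122 to 0.315 CPM, the unit in which each library's counts are scaled to 1 common total. Levels are given as CPM normalized by the trimmed mean of M values (TMM), and edgeR's quasi-likelihood test with Benjamini-Hochberg adjustment over all genes tested was used throughout at a threshold of 0.05. The 10 mast cell markers summed to 54428 to 83434 CPM in Control, 58386 to 65363 CPM in BSA and 70301 to 81495 CPM in BSA + luteolin. The Control libraries were not alike. The 7 neutrophil markers (among them S100a8, S100a9 and Ltf) summed to 216 CPM in Control 1 and to 5.69 and 7.07 CPM in Controls 2 and 3, against 145 to 159 CPM in BSA and 168 to 199 CPM in BSA + luteolin. The 3 eosinophil markers summed to 34.1 CPM in Control 1 and to at most 0.0969 CPM in Controls 2 and 3, against 15.1 to 19.8 CPM in BSA and 17.3 to 26.0 CPM in BSA + luteolin. Calls of the tested members and the pathway lists against Control are therefore given with all 3 Control libraries, without Control 1, and against Control 1 alone. The last was chosen after these values were seen. Lymphocyte markers summed to at most 3.84 CPM in any library, with Cd3e at 0 in all 9. Control 1 was also above Controls 2 and 3 in the summed markers of the other 6 lists, namely mast cells (83434 against 54428 and 54688 CPM), basophils (1878 against 1652 and 1717 CPM), dendritic cells (45.7 against 32.2 CPM in both), the erythroid and megakaryocyte lineages (2295 against 1905 and 1917 CPM), lymphocytes (3.84 against 0.536 and 1.65 CPM) and macrophages (243 against 234 and 236 CPM, with up to 297 CPM in the other groups). In such bulk samples, fewer cells of a type and less RNA per cell cannot be told apart.

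The comparison of BSA + luteolin with BSA asked which ATF4 targets changed when stimulated cells were also given luteolin. Of the 8 members not chosen for their fall, 5 fell (Ddit3, Trib3, Sesn2, Atf4 and Ppp1r15a), 1 rose (Phgdh) and 2 were not called (Asns and Psat1). Of all genes tested, 21.9% were called lower and 18.1% higher in this comparison, so that a call alone was common and the sizes below carry the description. The median log2 fold change of the 8 was -0.65, and that of all genes tested was 0.02. The 5 lower calls held under every alternative run, including other normalizations, DESeq2, limma and the removal of any single library. The summed mast cell and neutrophil markers stood higher with luteolin than in any BSA library, as did basophil markers (1610 to 1754 against 1446 to 1504 CPM) and erythroid and megakaryocyte markers (1940 to 2065 against 1811 to 1899 CPM), and their part in these differences was not tested.

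**Figure D1:**
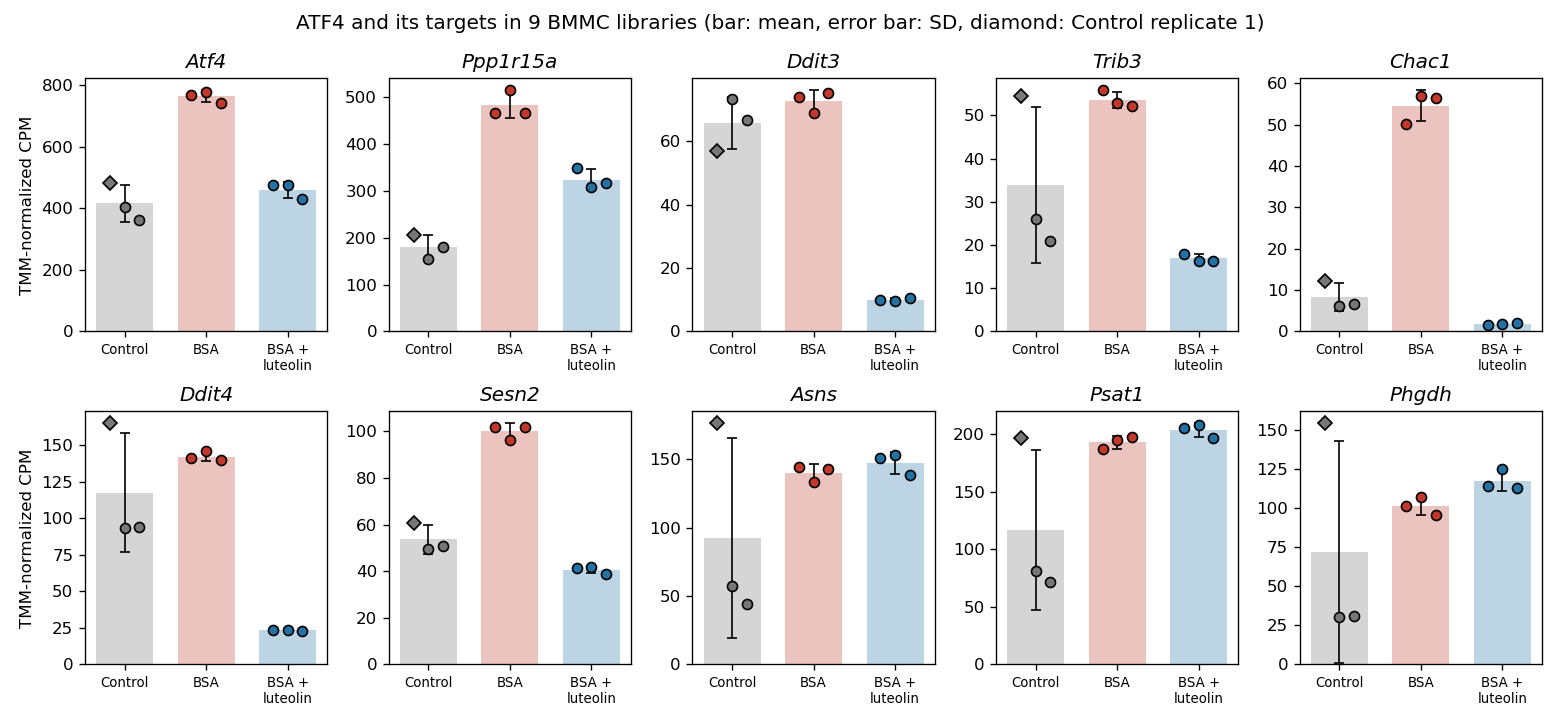
TMM-normalized CPM (y axis, linear and from 0) of the 10 genes in the 3 groups, with 1 point per library, bars at the mean of 3 libraries, error bars of 1 SD and a diamond for Control 1. The blue points lie below all red and grey points for Ddit3, Trib3, Chac1, Ddit4 and Sesn2, whereas for Asns, Psat1 and Phgdh the low points are those of Controls 2 and 3. The share of all genes separated in the former way was not counted.

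Atf4 (ENSMUSG00000042406, chr15:80255184-80257541, plus strand) encodes the factor itself. Its level was 770, 780 and 743 CPM in the 3 BSA libraries and 476, 475 and 429 CPM in the 3 BSA + luteolin libraries. The groups did not overlap, and with luteolin Atf4 mRNA stood near the Control libraries, at 482, 404 and 362 CPM. The log2 fold change with luteolin was -0.73 ± 0.06 (SE; edgeR adjusted p = 1.98e-08), so that 60.1% of the BSA mean was kept.

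Ddit3 (ENSMUSG00000025408, chr10:127290774-127296288, plus strand) encodes CHOP, a bZIP factor that is itself an ATF4 target and promotes cell death under lasting stress. Its level was 74.0, 68.7 and 75.0 CPM in BSA and 9.83, 9.47 and 10.5 CPM in BSA + luteolin. Control held 57.0, 73.2 and 66.6 CPM, a range that overlapped BSA and lay above every library with luteolin. Ddit3 fell 7.31-fold with luteolin in the group means, with a log2 fold change of -2.87 ± 0.08 (SE; edgeR adjusted p = 2.92e-14), the lowest of the 8 members tested. The gene overlaps Mars and Gm4189 on the opposite strand and a second annotated entry of the name Ddit3 on its own strand. The ID of that second entry was absent from the deposited counts. Reads of such overlaps could have been split or dropped. The strand setting of the authors' counting is not given in the sources used here. Mars, a tRNA synthetase gene, had a log2 fold change of 0.15 ± 0.06 (SE; edgeR adjusted p = 0.0511) and was not called. The part of overlapping reads in the values of Ddit3 was not tested.

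Trib3 (ENSMUSG00000032715, chr2:152337422-152344032, minus strand) encodes a pseudokinase that binds ATF4 and the kinase AKT and restrains both. Its level was 55.8, 52.9 and 52.3 CPM in BSA and 18, 16.4 and 16.3 CPM in BSA + luteolin. The groups did not overlap, and the libraries with luteolin also lay below the lowest Control library, at 20.9 CPM. The log2 fold change was -1.66 ± 0.08 (SE; edgeR adjusted p = 2.32e-11).

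Ppp1r15a (ENSMUSG00000040435, chr7:45522916-45526268, minus strand) encodes GADD34. Its level was 466, 514 and 466 CPM in BSA and 349, 307 and 316 CPM in BSA + luteolin. Of the 5 members that fell it moved least, with a log2 fold change of -0.57 ± 0.06 (SE; edgeR adjusted p = 1.8e-06) and 67.3% of the BSA mean kept. Unlike the other 4, it stayed above every Control library, whose highest value was 206 CPM. The gene overlaps Tulp2 on the opposite strand.

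Among the effectors, Chac1 (ENSMUSG00000027313, chr2:119351229-119354381, plus strand) encodes a cyclotransferase that degrades glutathione. It had 1110, 1138 and 1157 counts in the BSA libraries and 32, 47 and 42 counts in those with luteolin. As CPM these were 50.2, 56.9 and 56.4 against 1.49, 1.9 and 2.03. The means differed 30.1-fold, 3.32% of the BSA mean was kept, and the estimated log2 fold change was -4.90 ± 0.12 (SE), values for which the gene was chosen.

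Ddit4 (ENSMUSG00000020108, chr10:59949669-59951834, minus strand) encodes REDD1, an inhibitor of mTORC1. Its level was 141, 146 and 140 CPM in BSA and 23.7, 23.8 and 23 CPM in BSA + luteolin. The means differed 6.06-fold, with an estimated log2 fold change of -2.60 ± 0.06 (SE), likewise the value by which it was chosen.

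Sesn2 (ENSMUSG00000028893, chr4:132492032-132510501, minus strand) encodes Sestrin2, a leucine sensor that also restrains mTORC1. Its level was 102, 96.4 and 102 CPM in BSA and 41.3, 41.9 and 38.8 CPM in BSA + luteolin. Sesn2 fell 2.46-fold in the means, with a log2 fold change of -1.30 ± 0.06 (SE; edgeR adjusted p = 3.28e-11), and the libraries with luteolin lay below the lowest Control library, at 49.4 CPM. The gene overlaps Gm12981 on its own strand.

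**Figure D2:**
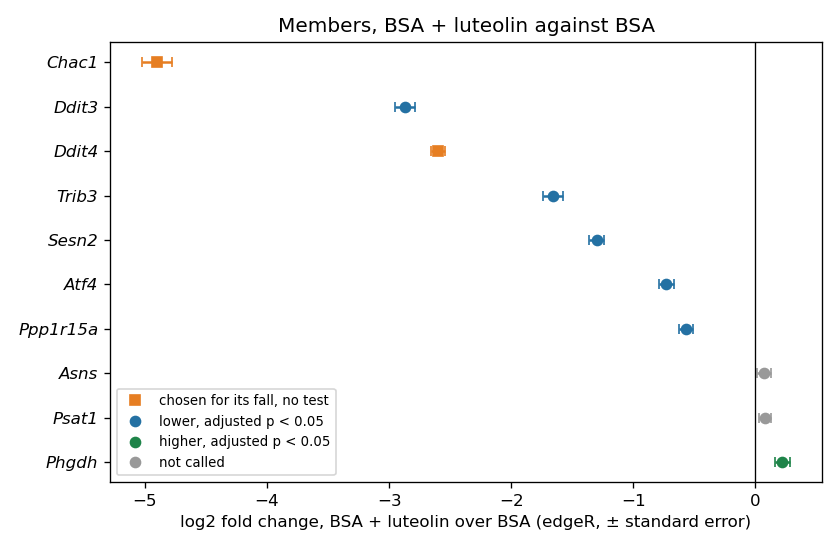
Estimated log2 fold change of each member between BSA + luteolin and BSA (x axis, edgeR, error bars of 1 SE, 3 libraries per group), ordered from the lowest value at the top. Blue points were called lower, green higher and grey not called, and orange squares mark Chac1 and Ddit4, which were chosen for their fall and carry no test. The values run from -4.90 for Chac1 to 0.22 for Phgdh.

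The 3 enzymes of amino acid synthesis were measured at levels close to those in BSA. Asns (ENSMUSG00000029752, chr6:7675169-7693254, minus strand) encodes asparagine synthetase, a classical ATF4 target. Its level was 144, 133 and 143 CPM in BSA and 151, 153 and 138 CPM in BSA + luteolin. The groups overlapped, and the log2 fold change was 0.07 with a 95% interval of -0.05 to 0.20 (edgeR adjusted p = 0.343).

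Psat1 (ENSMUSG00000024640, chr19:15904678-15947337, minus strand) and Phgdh (ENSMUSG00000053398, chr3:98313170-98339990, minus strand) encode enzymes of serine synthesis from glycolytic intermediates. Psat1 was at 187, 195 and 198 CPM in BSA and at 206, 208 and 197 CPM in BSA + luteolin. The groups overlapped, and its log2 fold change was 0.08 with a 95% interval of -0.03 to 0.20 (edgeR adjusted p = 0.254). The interval of neither Asns nor Psat1 reached the value of Ppp1r15a, the member that fell least.

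Phgdh was at 101, 107 and 95.4 CPM in BSA and at 114, 125 and 113 CPM in BSA + luteolin, with no overlap. Its log2 fold change was 0.22 ± 0.06 (SE; edgeR adjusted p = 0.0133), a call lost without BSA 1, without BSA 3 or without BSA + luteolin 2, where the values were 0.21, 0.17 and 0.16, with all 9 libraries in the fit (0.21), and at a threshold of 0.01. With library size alone as the normalization all 3 enzyme genes were called higher, at 0.19 for Asns, 0.19 for Psat1 and 0.33 for Phgdh, and the median of all genes then stood at 0.13. Psat1 overlaps a pseudogene on the opposite strand and Phgdh has a named pseudogene, so that reads of both could have been split.

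The contrast between an effector and an enzyme was also read within each library, where no normalization enters. Counts of Trib3 per count of Asns, a pair chosen after the values were seen because both promoter windows hold the composite element, were 0.387, 0.397 and 0.366 in BSA and 0.119, 0.107 and 0.118 in BSA + luteolin. Control held 0.310, 0.456 and 0.476, so that all 3 libraries with luteolin lay below the other 6 although Control 1 stood apart in either gene alone. The difference between the BSA + luteolin and BSA means was -1.74 on the log2 scale, given with no test because the pair was chosen after these values were seen.

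The levels of different genes were compared per kilobase of exon. In BSA, Atf4 was highest at 324 CPM per kilobase, followed by Ppp1r15a at 164, Ddit4 at 81.1, Asns at 51.2, Psat1 at 45.4, Ddit3 at 42.4, Phgdh at 40.7, Chac1 at 33.3, Sesn2 at 28.8 and Trib3 at 25.3 CPM per kilobase. Only Ddit3 and Phgdh overlapped among neighbours in that order. In BSA + luteolin the first 5 were Atf4 at 195, Ppp1r15a at 110, Asns at 53.8, Psat1 at 47.9 and Phgdh at 47.2 CPM per kilobase, the last 2 of which overlapped. The others followed with no overlap between neighbours, from Ddit4 at 13.4 and Sesn2 at 11.7 to Trib3 at 7.95, Ddit3 at 5.8 and Chac1 at 1.1 CPM per kilobase. In Control, Atf4 at 177 and Chac1 at 5.11 CPM per kilobase stood clear at either end, and from Ddit3 at 38.3 down to Trib3 at 15.9 each gene overlapped the next.

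The comparison of BSA with Control asked which members changed on stimulation. Of the 8 members tested, 3 rose (Atf4, Sesn2 and Ppp1r15a) and none fell in edgeR (0 at an unadjusted p under 0.05, and 0 by DESeq2), and of all genes tested 2.25% were called higher and 1.02% lower. Ppp1r15a rose from 206, 155 and 180 CPM in Control to the 466 to 514 CPM given above, with a log2 fold change of 1.42 ± 0.14 (SE; edgeR adjusted p = 0.00284). Atf4 rose by 0.87 ± 0.13 on the log2 scale (SE; edgeR adjusted p = 0.0191). Sesn2 rose from 60.7, 49.4 and 50.8 CPM by 0.90 ± 0.12 on the log2 scale (SE; edgeR adjusted p = 0.0107). These 3 were also called higher without Control 1 and against Control 1 alone, where the lowest of their values was 0.65 for Atf4. When Control 2, Control 3 or any 1 BSA library was left out, Ppp1r15a alone was called, while Atf4 stood at 0.78 to 0.90 and Sesn2 at 0.84 to 0.92, with edgeR adjusted p-values from 0.0534 to 0.139.

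For Chac1 the Control libraries held 12.2, 6.2 and 6.68 CPM, below all BSA libraries and above all libraries with luteolin. The BSA mean was 6.52-fold the Control mean and the estimated log2 fold change was 2.68, or 3.02 without Control 1. For Ddit4 the Control libraries held 165, 93.6 and 94.4 CPM, so that Control 1 lay above BSA and Controls 2 and 3 below it. The estimate was 0.27, or 0.55 without Control 1. Ddit3, at a log2 fold change of 0.15 with a 95% interval of -0.13 to 0.42 (edgeR adjusted p = 0.539), overlapped between Control and BSA.

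The 3 enzymes and Trib3 turned on which Control library was used. Asns was at 176, 57.1 and 44.0 CPM in the 3 Control libraries, Psat1 at 197, 81.0 and 71.9 CPM, Phgdh at 154, 30.6 and 31.1 CPM, and Trib3 at 54.5, 26.1 and 20.9 CPM. In each of the 4 genes Control 1 was at least 2.32 times the mean of Controls 2 and 3, most of all for Phgdh at 4.99 times. With all Control libraries none of the 4 was called, their edgeR adjusted p-values running from 0.329 to 0.716. Without Control 1, 7 of the 8 members rose (all but Ddit3), with Asns at 1.44, Psat1 at 1.30, Phgdh at 1.66 and Trib3 at 1.17 on the log2 scale, where 22.6% of all genes were called higher and 22.4% lower. Against Control 1 alone, with that library assumed to vary like the BSA libraries, Asns fell by 0.35 and Phgdh fell by 0.62 on the log2 scale. There Atf4, Ddit3, Ppp1r15a and Sesn2 were called higher, with Ddit3 at 0.33, and of all genes 23.1% were called higher and 19.2% lower. Psat1 and Trib3 then stood at -0.05 and -0.04 and were not called. The summed markers of all 8 lists moved with this split of the Control libraries, as given above, and their part in it was not tested.

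**Figure D3:**
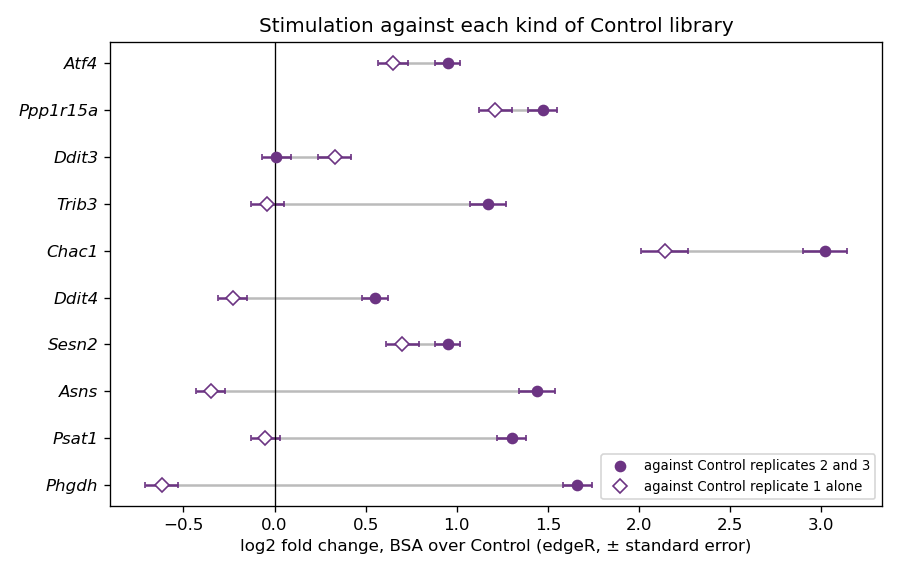
Estimated log2 fold change of each member between BSA and Control (x axis, edgeR, error bars of 1 SE), with filled circles for the fit against Controls 2 and 3 and open diamonds for the fit against Control 1 alone. Atf4, Ppp1r15a, Sesn2, Chac1 and Ddit3 lie to the right of 0 in both fits (Ddit3 at 0.01 and 0.33), whereas Asns, Phgdh, Psat1, Trib3 and Ddit4 lie on opposite sides of it, Phgdh at 1.66 and -0.62.

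The comparison of BSA + luteolin with Control asked where the members stood against unstimulated cells. Ddit3 fell below Control, with 15.1% of the Control mean and a log2 fold change of -2.73 ± 0.14 (SE; edgeR adjusted p = 0.000802). Ppp1r15a remained higher, with a log2 fold change of 0.84 ± 0.13 (SE; edgeR adjusted p = 0.0212), a call lost when Control 2, Control 3 or any 1 library with luteolin was left out (0.75 to 0.88). Of all genes tested, 2.75% were called lower and 0.285% higher. Atf4 was not called, at 0.14 with a 95% interval of -0.16 to 0.44. The lowest Control library lay above the highest library with luteolin for Chac1, Ddit3, Ddit4, Trib3 and Sesn2. The share of all genes separated in this way was not counted. The luteolin means of these genes were 21.6%, 15.1%, 20.0%, 50.0% and 75.8% of the Control means. Chac1 and Ddit4 carried no test. Trib3 at -1.0 (edgeR adjusted p = 0.149) and Sesn2 at -0.40 (edgeR adjusted p = 0.112) missed the edgeR threshold with all Control libraries. DESeq2 called 3 of the 8 tested members lower in that comparison.

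The fit against Control 1 alone was chosen after the values were seen, and in it the libraries with luteolin supply the spread. Without Control 1 all 8 members were called: Ddit3, Trib3 and Sesn2 lower, at -2.82, -0.46 and -0.31, and Atf4, Ppp1r15a, Asns, Psat1 and Phgdh higher, the last at 1.92. In that fit 30.1% of all genes were called lower and 29.9% higher. Against Control 1 alone 5 members were lower, with Ddit3 at -2.52, Trib3 at -1.69, Sesn2 at -0.58, Phgdh at -0.39 and Asns at -0.26, and Ppp1r15a was higher at 0.66. There 9.55% of all genes were called lower and 11.6% higher. The direction of the value for Asns, Phgdh and Atf4 (0.25 without Control 1 and -0.07 against Control 1 alone, the latter not called) turned with the Control library, whereas Ddit3, Trib3 and Sesn2 were lower and Ppp1r15a higher in both.

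The other genes of the pathway were followed in 6 lists of 87 genes, of which 85 were tested. Between BSA + luteolin and BSA, 27 fell (31.8%, against 21.9% of all genes tested) and 9 rose (10.6%, against 18.1%), with a median log2 fold change of -0.07 against 0.02 for all genes tested. With all 9 libraries in the fit 19 were called lower and 1 higher, where 7.93% of all genes were lower and 1.52% higher. The count of higher calls was 2 without BSA + luteolin 1 and 3 without BSA + luteolin 2, and 6 without BSA 1 or without BSA 3. In those fits 10.5%, 10.7%, 11.5% and 12.6% of all genes were called higher, in that order. With library size alone as the normalization, under which the median of all genes was 0.13, the calls were 26 lower and 26 higher (30.6% each, against 15.3% and 33.4% of all genes).

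Of 10 bZIP partners and regulators, 6 fell and none rose in edgeR (0 at an unadjusted p under 0.05, and 0 by DESeq2), with a median of -0.62. Of all genes tested, 21.9% were called lower and 18.1% higher. Atf3, a bZIP factor induced with ATF4 that shares its DNA elements, went from 216 ± 5.77 CPM in BSA to 10.8 ± 0.975 CPM with luteolin (SD, n = 3 each; log2 fold change -4.33, edgeR adjusted p = 1.11e-16), against 16.5 ± 1.71 CPM in Control. Nupr1, a stress-induced chromatin-associated protein, went from 65.9 ± 6.14 to 14.5 ± 1.24 CPM (log2 fold change -2.18, edgeR adjusted p = 4.02e-12). Egln3, a prolyl hydroxylase, fell by 1.23 on the log2 scale. Of the 8 genes of this list found in the promoter table, 3 had a window with the composite element, namely Atf3, Nupr1 and Jdp2. Jdp2 was not called (log2 fold change -0.16, edgeR adjusted p = 0.103). Such windows were found for 3 of 15 genes of the stress effector list and 2 of 9 transporters. They were found for 2 of 11 synthesis genes and 1 of 13 eIF2 genes.

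Of 20 stress effectors and genes of mTORC1 and autophagy, 10 fell and 3 rose, with a median of -0.38, beside 21.9% lower and 18.1% higher among all genes. Trib1, a relative of Trib3, went from 23.1 ± 1.5 to 1.18 ± 0.281 CPM (log2 fold change -4.29, edgeR adjusted p = 1.15e-12). Ndrg1, a stress- and hypoxia-induced gene, went from 228 ± 28.9 to 52.3 ± 1.55 CPM (log2 fold change -2.12). Bbc3, which encodes the death-promoting protein PUMA, went from 35.9 ± 2.77 to 10.9 ± 1.55 CPM (log2 fold change -1.72), with Control at 70.5 ± 20.0 CPM. The 3 that rose were Atg5 by 0.45, Sesn1 by 0.23 and Map1lc3b by 0.19 on the log2 scale, genes of autophagy and, for Sesn1, of the sestrin family. The count of 3 became 1 with all 9 libraries in the fit and without BSA 3, BSA + luteolin 1 or BSA + luteolin 2, Atg5 then being the gene still called. In those fits 1.52%, 12.6%, 10.5% and 10.7% of all genes were called higher, in that order. Sesn1 also lost its call without BSA 1, without BSA 2 and with DESeq2.

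Of 13 amino acid transporter genes, 6 fell and 1 rose, with a median of -0.33, beside 21.9% lower and 18.1% higher among all genes. Slc7a11, the cystine importer that feeds glutathione synthesis, went from 46.5 ± 9.59 to 13.8 ± 1.24 CPM (log2 fold change -1.75, edgeR adjusted p = 9.17e-09). Slc38a2, a carrier of small neutral amino acids, went from 237 ± 21 to 115 ± 1.63 CPM (log2 fold change -1.04), and Slc7a1, a carrier of cationic amino acids, fell by 0.84 on the log2 scale. Slc38a7 rose by 0.37, a call lost with all 9 libraries in the fit, where 4 of the list and 7.93% of all genes were lower.

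The amino acid synthesis and tRNA synthetase lists stand beside the 21.9% of all genes called lower and the 18.1% called higher. Of 12 further synthesis genes, 1 fell (Got1, by 0.41 on the log2 scale, a call lost with all 9 libraries in the fit) and none rose in edgeR (2 at an unadjusted p under 0.05, and 1 called by DESeq2), with a median of -0.01. Of 13 tRNA synthetase and export genes none fell in edgeR or DESeq2 (2 at an unadjusted p under 0.05) and 1 rose (Sars, by 0.18), with a median of 0.07 and values between -0.15 and 0.18. The call of Sars was lost with all 9 libraries in the fit and without BSA 1, BSA + luteolin 1 or BSA + luteolin 2. Windows of 5 of the 8 synthetase genes found in the promoter table held the composite element. With library size alone, 4 synthesis genes and 7 synthetase genes were called higher, where 33.4% of all genes were, and the counts of lower calls were 1 and 0.

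Of 17 genes of the eIF2 kinases and the eIF2 cycle, 4 fell and 4 rose (23.5% each), shares near those of all genes, with a median of 0.11. With all 9 libraries in the fit 1 fell and none rose in edgeR, without BSA + luteolin 1 the counts were 3 and 0 (17.6% and 10.5% of all genes), and with library size alone they were 3 and 10 (15.3% and 33.4% of all genes). Ppp1r15b, which encodes the constitutive eIF2 phosphatase subunit related to GADD34, went from 198 ± 5.74 to 100.0 ± 8.53 CPM (log2 fold change -0.98, edgeR adjusted p = 1.89e-09). Impact, an inhibitor of the kinase GCN2, fell by 0.56 and Eif2s3x, an eIF2 subunit, fell by 0.38 on the log2 scale. Nck1, Eif2b2 and Eif2ak1 rose by 0.33, 0.25 and 0.17, calls lost in the fit of all 9 libraries, as were those of Impact and Eif2s3x, and without BSA + luteolin 1. Leaving out BSA 2, BSA 3 or BSA + luteolin 2 also ended the calls of Eif2b2 and Eif2ak1, and leaving out BSA 1 that of Eif2ak1, which DESeq2 and limma did not call.

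**Figure D4:**
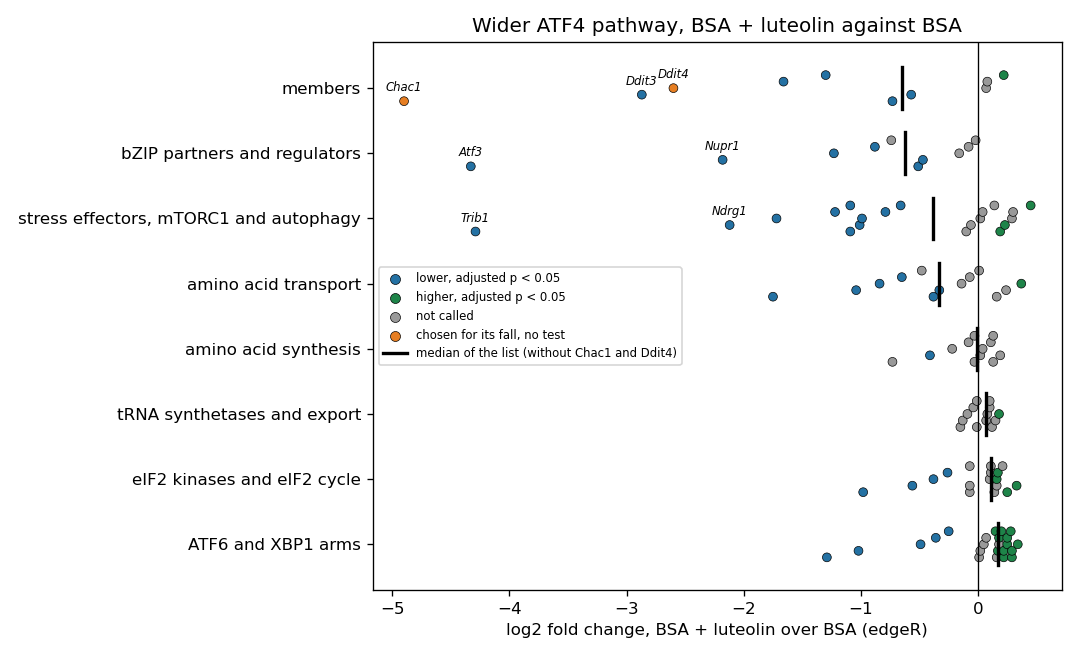
Estimated log2 fold change with luteolin in stimulated cells (x axis, edgeR, BSA + luteolin over BSA) for each tested gene of the members, the 6 pathway lists and a list of genes of the ATF6 and XBP1 arms (y axis), with blue for called lower, green for called higher, grey for not called, orange for Chac1 and Ddit4 (no test) and a black bar at the median of each list, taken over 8 genes for the members. Atf3 (-4.33), Trib1 (-4.29), Nupr1 (-2.18) and Ndrg1 (-2.12) have the lowest values outside the members, while the tRNA synthetases lie between -0.15 and 0.18.

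Between BSA and Control, 10 of the 85 pathway genes rose (11.8%, against 2.25% of all genes) and none fell in edgeR (against 1.02%, with 5 at an unadjusted p under 0.05, and 2 called by DESeq2). They included Atf3, with a log2 fold change of 3.72 (edgeR adjusted p = 3.86e-05), Trib1 at 2.83, Nupr1 at 1.69, Slc7a11 at 1.55, Ndrg1 at 1.44, the oxidase gene Ero1l at 1.01, Slc7a1 at 0.83 and the tRNA exporter Xpot at 0.67. Of these 8, Atf3, Trib1 and Ndrg1 were called whichever single library was left out. Ero1l, Nupr1, Slc7a1, Slc7a11 and Xpot lost their calls without BSA 1 or without BSA 3. Slc7a11 and Xpot also lost theirs without Control 2 or without Control 3. Xpot also lost its call without BSA 2 and with the replicate number as a block. Without Control 1, 59 rose and 9 fell, all 13 synthetase and export genes among the former, and against Control 1 alone 23 rose and 19 fell, with 7 of those 13 lower and 1 higher. Of the 85 these were 69.4% higher and 10.6% lower without Control 1, against 22.6% and 22.4% of all genes, and 27.1% higher and 22.4% lower against Control 1 alone, the last pair near the 23.1% and 19.2% of all genes. Between BSA + luteolin and Control, 1 pathway gene was called (1.18% lower and 0 higher, against 2.75% and 0.285% of all genes), Bbc3, which fell by 2.7 on the log2 scale (edgeR adjusted p = 0.00615), a call lost without BSA + luteolin 1 or without BSA + luteolin 2. Without Control 1, 20 were lower and 48 higher (23.5% and 56.5%, against 30.1% and 29.9% of all genes), and against Control 1 alone 23 were lower and 5 higher (27.1% and 5.88%, against 9.55% and 11.6%).

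The profiles across the 9 libraries were compared with those of Chac1 and Ddit4 by Pearson's r of log2(CPM + 0.1), as a description in which the 3 groups set most of the spread. Among the members, Sesn2 was most like Chac1 (r = 0.98, n = 9 libraries), followed by Trib3 at 0.93, Ddit4 at 0.88, Ddit3 at 0.83 and Atf4 at 0.81. Ppp1r15a was at 0.47, and Asns, Psat1 and Phgdh were at 0.10, 0.08 and 0.04. Ddit3 was most like Ddit4 (r = 0.97), then Trib3 at 0.90, Chac1 at 0.88 and Sesn2 at 0.81, while Atf4 was at 0.48, Ppp1r15a at 0.03, Asns at -0.15, Phgdh at -0.19 and Psat1 at -0.22. Over all genes tested the 5 most like Chac1 were Cited2, Evi2a, Ier3, Maff and Tent5c (r from 0.994 to 0.995), and the 5 most like Ddit4 were Osgin1, Klf2, Snhg8, Vmp1 and 1810032O08Rik (r from 0.982 to 0.989).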

How the data were processed

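Stranded mRNA libraries were sequenced from BMMCs, 3 in each of the Control, BSA and BSA + luteolin groups. The authors filtered reads with HTStream, aligned them with STAR 2.7.0f (build mm10) and deposited the counts of each Ensembl gene without normalization. The annotation release and the strand setting of the counting are not given in the sources used here. Depth was 9515004 to 24605689 counts per library. Libraries were grouped by their labels. Counts were tested with edgeR 4.0.16 in R 4.3.3 (quasi-likelihood, TMM, two-sided, Benjamini-Hochberg, threshold 0.05) on the 6 libraries of each comparison, for genes with a median CPM above 1. The fit was tested on simulated data. DESeq2 1.42.0, limma 3.58.1, other normalizations, no filter, all 9 libraries, leaving out libraries and a replicate block were alternatives. GENCODE M21 on GRCm38 matched 47224 of 47643 IDs. Members and lists were chosen with earlier results of these data known. Text names all members, up to 3 called genes per list, direction and comparison with the most extreme values, and the 5 genes most like Chac1 and Ddit4. A list of ATF6 and XBP1 genes was tested likewise and marker lists were summed. Promoter windows came from RefSeq.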

Additional observations from a re-analysis of the deposited data

How the results depend on the processing

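Between BSA + luteolin and BSA, 6 of the 8 tested members were called, and 5 to 8 under every alternative, with Ddit3, Trib3, Sesn2, Atf4 and Ppp1r15a lower in each. The pathway count of 36 became 20 with all 9 libraries in the fit, where the calls among all genes went from 4624 to 1093. Comparisons with Control depended on the libraries. Between BSA and Control, 3 members were called, 1 to 7 when 1 library was left out, 6 against Control 1 alone and 1 at an adjusted p under 0.01. The pathway count of 10 became 22 with DESeq2, 16 with no filter on low counts, 23 with all 9 libraries, 3 to 68 when 1 library was left out, 42 against Control 1 alone and 6 at an adjusted p under 0.01. Between BSA + luteolin and Control, 2 members were called, 4 with DESeq2, 1 to 8 when 1 library was left out, 6 against Control 1 alone and 1 at an adjusted p under 0.01. The pathway count of 1 became 15 with DESeq2, 2 with library size alone, 3 with upper-quartile factors, 4 with no filter, 14 with all 9 libraries, 0 to 68 when 1 library was left out and 28 against Control 1 alone. The highest counts, 7 and 68 and 8 and 68, came without Control 1. Calls among all genes moved as well. Between BSA and Control they went from 378 to 1227 with DESeq2, 618 with no filter and 1105 with all 9 libraries. They ran from 90 to 5207 when 1 library was left out. Between BSA + luteolin and Control they went from 351 to 1379 with DESeq2, 811 with no filter and 1251 with all 9 libraries. They ran from 2 to 6931 when 1 library was left out. Directions turned for Ddit3 between BSA and Control with library size alone (-0.03), and against Control 1 alone for Trib3 (-0.04), Asns (-0.35), Psat1 (-0.05), Phgdh (-0.62) and the untested Ddit4 (-0.23), and between BSA + luteolin and Control for Atf4 (-0.07), Asns (-0.26) and Phgdh (-0.39). The cause was not tested.

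Replicate numbers were shared by the groups. The deviations of same-numbered libraries from their group means correlated between -0.255 and 0.307, not all above 0.1. These libraries were therefore not taken as pairs. With a replicate block 6, 2 and 2 members and 45, 7 and 1 pathway genes were called in the 3 comparisons as ordered above, with Atf4 no longer called between BSA and Control. Over all genes, library size alone gave 31.4% of calls as lower between BSA + luteolin and BSA against 54.6% with TMM, and 62.7% against 31.2% between BSA and Control, and upper-quartile factors gave 38.2% and 47.6%. The median log2 fold change of all genes was then 0.13 and -0.15 with library size alone. Control 2 was the shallowest library at 9515004 counts, where 3 counts were 0.315 CPM, and Chac1 rested on 32 to 47 counts per library with luteolin.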

Other observations

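The ATF6 and XBP1 arms of the response to unfolded proteins, as a list of sensors, factors and targets, were read beside the ATF4 pathway. Of 23 such genes tested between BSA + luteolin and BSA, 5 fell (21.7%, against 21.9% of all genes) and 12 rose (52.2%, against 18.1%), with a median log2 fold change of 0.17 against 0.02 for all genes tested. Dnajb9, a chaperone cofactor of the endoplasmic reticulum, fell by 1.29, the sensor kinase gene Ern1 by 1.02 and Xbp1 by 0.49 on the log2 scale (edgeR adjusted p = 1.38e-10, 3.74e-07 and 1.45e-06). Pdia3, Dnajb11 and Derl2, which fold or clear proteins there, rose by 0.34, 0.29 and 0.29 (edgeR adjusted p = 0.000175, 0.000651 and 0.00369). With library size alone as the normalization 5 fell and 16 rose (15.3% and 33.4% of all genes). With all 9 libraries in the fit 2 fell and none rose (7.93% and 1.52% of all genes), so that Ern1 and the 3 rises just named were not called there. Without BSA 1, BSA 3, BSA + luteolin 1 or BSA + luteolin 2, 8 rose. In those fits 11.5%, 12.6%, 10.5% and 10.7% of all genes were called higher, in that order. None of the 23 was called by edgeR between BSA and Control (1 at an unadjusted p under 0.05, and 1 called by DESeq2), against 2.25% of all genes higher and 1.02% lower. Between BSA + luteolin and Control Xbp1 alone was called, at -0.47 (edgeR adjusted p = 0.0443), against 2.75% of all genes lower. That call was lost when any library but Control 1 was left out, with the replicate number as a block and with no filter on low counts. These counts rest on all 3 Control libraries. Counts without Control 1, where 22.6% of all genes rose and 22.4% fell between BSA and Control, are not given for this list. None of the windows of the 20 genes found in the promoter table held the composite element.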
